A study of Homo sapiens with 5 samples.

Results

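The partners and regulators of the transcription factor Nrf2 are described here as a set of 10 genes chosen by name: NFE2L2 (the gene of Nrf2) and its paralog NFE2L1, the ubiquitin ligase genes KEAP1, CUL3 and BTRC, the adaptor SQSTM1, the small MAF genes MAFF, MAFG and MAFK, and the repressor BACH1. The choice was made with earlier results of these data known, and the study had named NFE2L2, KEAP1, MAFF, SQSTM1 and BACH1 for HIF1α binding with arsenic. It had also named KEAP1 and BACH1 for Nrf2 binding, and VCP, among the other regulators described below, for HIF1α binding. Shares of the set beside those of all genes are thus descriptions and no independent evidence of an excess. The 10 genes are among 20163 protein-coding genes, and 101 of the 29781 ChIP-seq peaks of the series lay in their gene bodies or within 50 kb of them. The study asked where Nrf2 and HIF1α sit on chromatin when cells meet inorganic arsenic (iAs). All libraries came from BEAS-2B, an immortalized line of human bronchial epithelial cells bought from a cell repository, which was kept overnight in serum-free medium. Control cells then stayed without iAs, and iAs-treated cells received 1 μM iAs for 6 h. Each condition gave 1 library with an antibody against Nrf2 and 1 with an antibody against HIF1α, so there were 4 libraries, named here Nrf2 control, Nrf2 iAs, HIF1α control and HIF1α iAs. With 1 library per group no difference has a replicate check and no test was possible. The peak lists hold intervals on hg19 without heights, scores or read numbers, so the depth behind a peak is unknown and a peak is described by its place, its width and its overlap with other peaks. The number of cells bound and the amount of factor bound per cell cannot be told apart in such lists. Identity of the cells was not checked against marker genes, since a peak list holds no expression values.

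Nrf2 is a basic leucine zipper protein that binds antioxidant response elements as a dimer with a small MAF protein (MAFF, MAFG or MAFK). In unstressed cells KEAP1 holds Nrf2 and, as the substrate adaptor of the CUL3 ubiquitin ligase, has it degraded, while BTRC (β-TrCP) leads it to another ligase after phosphorylation. Electrophiles and arsenicals modify cysteines of KEAP1, p62 (the product of SQSTM1) draws KEAP1 into autophagy, and BACH1 competes with Nrf2 for the small MAF proteins and for the elements. HIF1α is the regulated subunit of the hypoxia-inducible factor and recognizes a short core, ACGTG or GCGTG, on DNA.

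The sequences below are reference bases of hg19 under Nrf2 iAs peaks, taken from whole peak intervals. Capitals mark matches to TGACNNNGC, the core of the antioxidant response element. Of 20 such matches in the Nrf2 iAs intervals at the set, the 13 under peaks whose nearest protein-coding start was that of the gene itself are printed, and the other 7, at NFE2L1, MAFF, MAFG, MAFK and BACH1, are not. Each sequence is printed 5′ to 3′ on the strand of the match, with 10 bases on either side, and all lay in intron 1 of the canonical transcript unless another place is given.
NFE2L2 (chr2:178128331-178128359, minus): ttggcttccgTGACAGCGCtcggttggcc
NFE2L2 (chr2:178128651-178128679, plus): gagagatggaTGACTTCGCaaagccgcgc
NFE2L2 (chr2:178128791-178128819, plus): agcggccccgTGACTAGGCacatttttgc
KEAP1 (chr19:10613460-10613488, plus): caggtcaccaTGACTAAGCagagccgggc
KEAP1 (chr19:10613483-10613511, minus): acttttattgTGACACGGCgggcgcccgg
SQSTM1 (chr5:179246575-179246603, minus, upstream of the canonical start): tggccaagcgTGACTCAGCagcccaggcg
SQSTM1 (chr5:179247543-179247571, minus, upstream of the canonical start): ggcctggccaTGACTCAGCaatatcctca
MAFG (chr17:79884833-79884861, plus): ctcacgctgaTGACTCAGCaagtctccct
MAFG (chr17:79884973-79885001, plus): cggggagagcTGACGCGGCcaccggatga
MAFG (chr17:79881483-79881511, plus): cgagtcacgcTGACTCAGCacattgcctc
MAFG (chr17:79882031-79882059, minus): tcggaggggcTGACTCCGCcagccttcac
MAFK (chr7:1573650-1573678, plus): tgtagcggaaTGACACAGCttcctcagac
BACH1 (chr21:30672627-30672655, minus): ctggggcgaaTGACTCAGCaacccaactt
Of these 13 matches 5 read TGACTCAGC and thus also held TGACTCA, the AP-1-type core: both at SQSTM1, 2 of the 4 at MAFG, and that at BACH1. The other 8, which include all matches printed for NFE2L2, KEAP1 and MAFK, did not. In their main setting, the motif shares given later count only matches no farther than 100 bp from the centre. For Nrf2 iAs this leaves out all matches printed for SQSTM1 and MAFG, and that of NFE2L2 at +1110 bp.

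Across the set, 8 of the 10 genes carried a peak in every library. These were NFE2L2, NFE2L1, KEAP1, SQSTM1, MAFF, MAFG, MAFK and BACH1, and 12.9% of all protein-coding genes did the same. CUL3 alone had no peak in any library, as had 24.3% of protein-coding genes. Nrf2 control had a peak at 9 of the 10 genes, against 20.0% of protein-coding genes. With iAs the number was 8 of 10, against 35.0%. HIF1α control had a peak at 8 of 10, against 45.5%, and HIF1α iAs at 8 of 10, against 68.6%. The same 8 genes made up each of the last 3 counts, and BTRC was the ninth gene of Nrf2 control. The number of peaks at the set was 14 in Nrf2 control, 24 in Nrf2 iAs, 14 in HIF1α control and 49 in HIF1α iAs, from lists of 3204, 7743, 6008 and 12826 peaks. The median gene span was 24.6 kb for the set and 27.2 kb for all protein-coding genes. Spans varied widely within the set, with 115 kb for CUL3, 174 kb for NFE2L2, 203 kb for BTRC and 437 kb for BACH1.

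**Figure D1:**
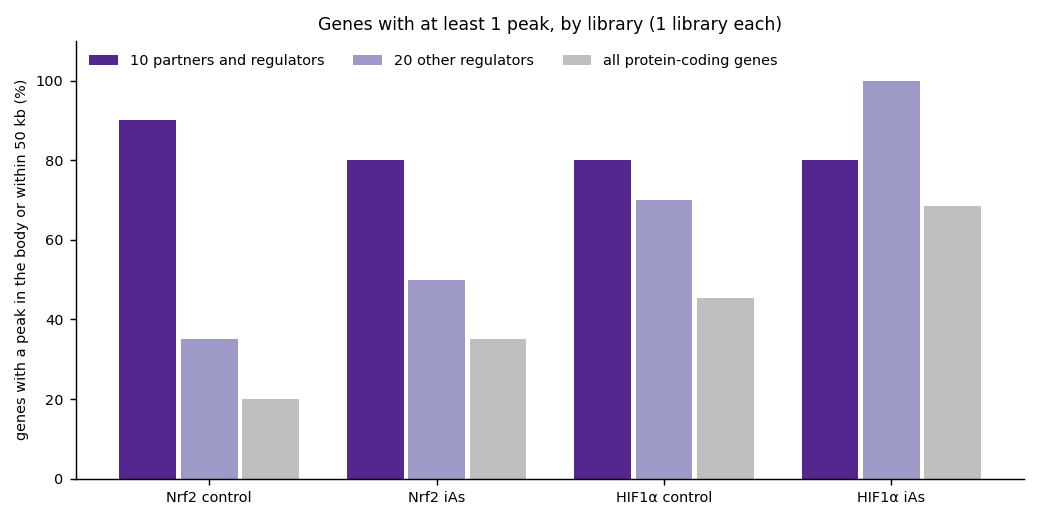
Share of genes (y axis, percent) with at least 1 peak in the gene body or within 50 kb in each of the 4 libraries (x axis), for the 10 partners and regulators, 20 other regulators of Nrf2 and all protein-coding genes. The set stood at 9 of 10 genes in Nrf2 control and 8 of 10 elsewhere, while the share of all protein-coding genes went from 20.0% to 68.6%.

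Many of these peaks were nearer to a neighbour than to the gene of the set. The closest protein-coding start site belonged to the set for 8 of 14 peaks of Nrf2 control, 12 of 24 of Nrf2 iAs, 10 of 14 of HIF1α control and 16 of 49 of HIF1α iAs. A stricter view is the peak centre within 1 kb of the gene's own canonical start site. In Nrf2 control 4 of the 10 genes had one (NFE2L2, KEAP1, SQSTM1 and MAFG), against 2.24% of protein-coding genes. NFE2L1 joined them in Nrf2 iAs, which made 5 of 10 against 4.92%. HIF1α control had 3 of 10 (KEAP1, SQSTM1 and MAFF) against 16.5%, and HIF1α iAs had 8 of 10 against 42.2%. The HIF1α control peak of NFE2L2 fell just outside this limit, at +1.1 kb, but lay at +0.023 kb from another of its start sites. With the start of any transcript of a gene allowed, the counts in the same order were 4, 6 (with BACH1), 4 (with NFE2L2) and 8, against 2.64%, 5.73%, 17.5% and 43.9%.

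**Figure D2:**
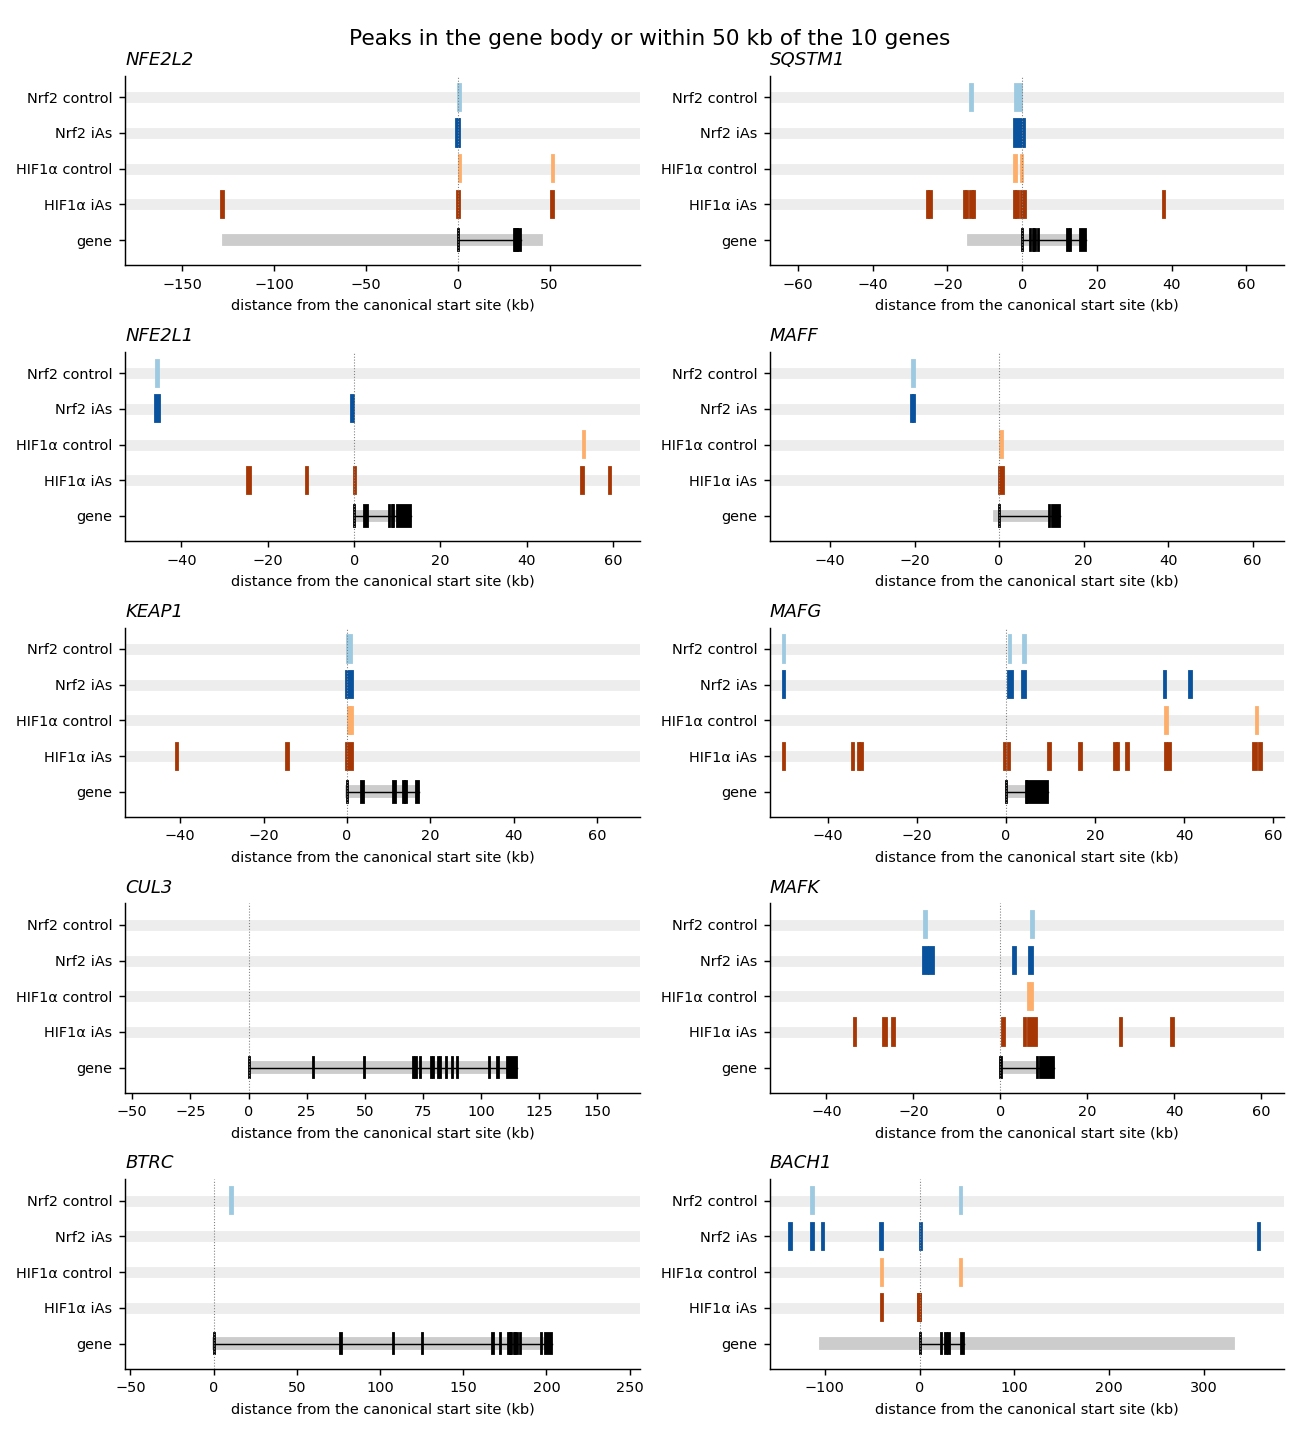
Peaks of the 4 libraries (coloured ticks, drawn at a minimum width) around each of the 10 genes against the distance from the canonical start site (x axis, kb, transcription from left to right). Grey bars are the span of all transcripts and black boxes the exons of the canonical transcript. CUL3 is empty, BTRC holds 1 peak, and MAFG holds 15 HIF1α peaks with iAs.

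NFE2L2, on the minus strand of chr2:178083395-178257484, carried peaks of both factors in intron 1 of its own gene. The Nrf2 control peak was 939 bp wide with its centre at +0.789 kb from the canonical start site. It was 1222 bp with iAs, at +0.721 kb, and a separate Nrf2 peak of 296 bp at −0.167 kb was present with iAs alone. HIF1α had a 367 bp peak at +1.1 kb in control cells. With iAs this was a 1571 bp peak centred at +0.482 kb, rank 45 by width among 12826, and it now covered the start site. Both factors therefore overlapped at the gene of Nrf2 itself, by 342 bp in control cells. With iAs the HIF1α peak overlapped both Nrf2 peaks, by 1157 bp and 285 bp. The 3 matches to TGACNNNGC printed above lay at +650 bp, +790 bp and +1110 bp, all inside the Nrf2 peak of either condition. HIF1α also held the start of HNRNPA3, downstream of NFE2L2, with a peak of 190 bp that was 654 bp with iAs. A HIF1α peak of 715 bp with iAs alone lay near the start of AGPS, at −128 kb from the canonical start of NFE2L2 but at −0.058 kb from the start of another of its transcripts. Just outside the window, at 50.2 kb from the gene, stood 1 further Nrf2 iAs peak.

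NFE2L1, on chr17:46125691-46138907, encodes Nrf1, a membrane-anchored relative of Nrf2 that drives proteasome genes. Its Nrf2 control peak of 634 bp was distant, at −45.6 kb, and was 1065 bp wide with iAs. An Nrf2 peak of 565 bp at −0.42 kb, just upstream of the start site, was in the iAs list alone. HIF1α had a 266 bp peak at +0.158 kb, in intron 1, with iAs alone. The HIF1α iAs list held 4 other peaks in the window, each closest to a neighbour, COPZ2 (2 peaks), CBX1 and SNX11. Of these, the CBX1 peak was also in HIF1α control, with 371 bp there and 555 bp with iAs. No Nrf2 peak overlapped a HIF1α peak in this window in either condition.

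KEAP1, on the minus strand of chr19:10596801-10614234, carried both factors on the same stretch of its own gene. The Nrf2 control peak was 1189 bp wide with its centre in intron 1, at +0.619 kb, and ranked 29 of 3204 by width. With iAs the Nrf2 peak was 1612 bp and reached over the start site. HIF1α had separate peaks of 420 bp (+0.595 kb) and 254 bp (+1.06 kb) in control cells, both inside the Nrf2 peak. A single HIF1α peak of 1520 bp took their place with iAs, rank 54 of 12826, and it lay wholly within the Nrf2 iAs peak. The KEAP1 matches printed above overlap each other by their flanks and stood at +558 bp and +535 bp, in the peaks of all 4 libraries. No Nrf2 peak at KEAP1 was particular to iAs, and HIF1α had iAs-only peaks of 307 bp and 224 bp near S1PR5 and ATG4D.

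The other ligase genes were nearly empty. CUL3, the scaffold of the KEAP1 ligase, on the minus strand of chr2:225334867-225450114, had no peak in its 115 kb body or within 50 kb. The nearest peaks outside that window were 248 kb away in both Nrf2 libraries, 513 kb in HIF1α control and 430 kb in HIF1α iAs. BTRC, on chr10:103113790-103317078, had 1 peak, an Nrf2 control interval of 288 bp in intron 1 at +10.7 kb, which no Nrf2 iAs peak overlapped. The nearest HIF1α iAs peak of BTRC was 61.4 kb from the gene, outside the window.

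SQSTM1, on chr5:179233398-179265078, held the widest interval of the Nrf2 control list. That peak measured 1985 bp, rank 1 of 3204, and ran from upstream of the canonical start site to just over it. With iAs it was 2447 bp, rank 17 of 7743, and a 479 bp Nrf2 peak at +0.542 kb in intron 1 was added. HIF1α had a 374 bp peak on exon 1 (5′-UTR) at +0.009 kb in control cells, which was 1189 bp at +0.313 kb with iAs. A second HIF1α peak, upstream, was 324 bp (−1.76 kb) in control cells and 508 bp (−1.87 kb) with iAs, and another of 421 bp at −1.29 kb was in the iAs list alone. This last peak held the TGACTCAGC site at −1316 bp printed above, while the other SQSTM1 site, at −348 bp, lay in the Nrf2 peaks and in no HIF1α peak. In all 10 HIF1α iAs peaks were in this window, of which 7 were nearest to MGAT4B, LTC4S or MRNIP. The Nrf2 control peak of 189 bp at −13.6 kb, by the start of MGAT4B, overlapped no Nrf2 iAs peak, although a HIF1α iAs peak of 576 bp sat there.

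**Figure D3:**
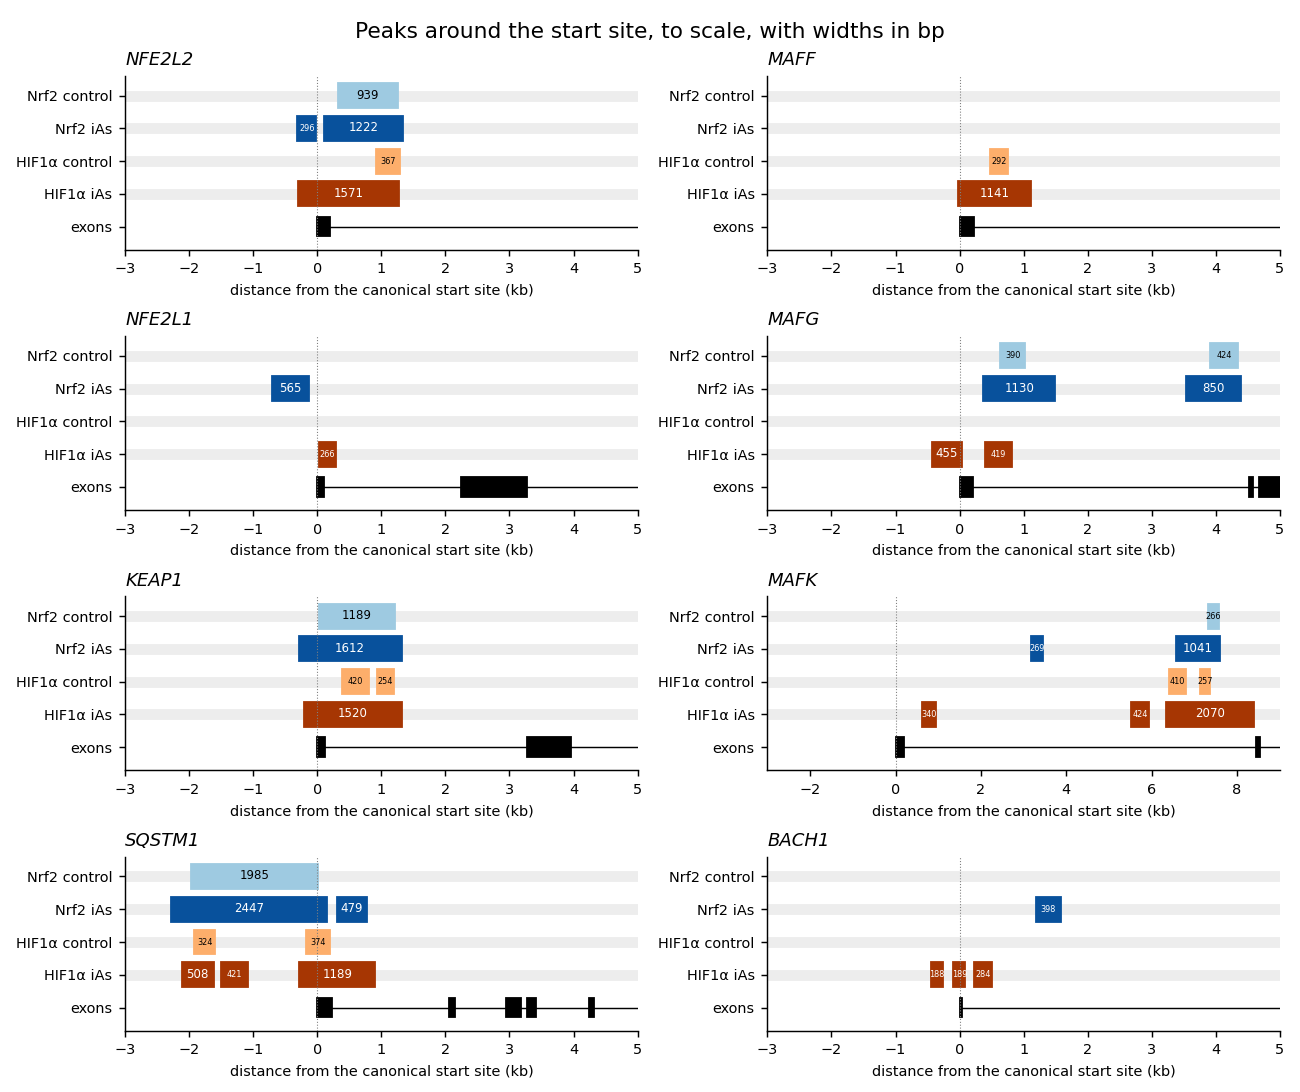
Peaks around the canonical start site of the 8 genes with peaks in every library, drawn to scale against the distance from that site (x axis, kb), with the width of each peak in bp and the exons in black. HIF1α peaks with iAs were wider than those of control cells at NFE2L2, KEAP1, SQSTM1, MAFF and MAFK, and HIF1α peaks near MAFG, NFE2L1 and BACH1 starts appeared in the iAs lane alone.

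The small MAF genes encode the dimer partners and differed from each other in which factor sat at the start. MAFF, on chr22:38596774-38612514, had HIF1α there and no Nrf2. Its HIF1α peak in intron 1 was 292 bp at +0.616 kb in control cells and 1141 bp at +0.541 kb with iAs. Nrf2 peaks were distant, at −20.2 kb in control cells (283 bp) and at −20.1 and −20.6 kb with iAs (443 and 221 bp), all by the start of PLA2G6. The HIF1α control peak of MAFF was dense in the hypoxia core, with 7 copies of ACGTG or GCGTG no more than 100 bp from its centre. As many or more were found in 17 of the 6008 HIF1α control peaks (0.283%), whose median was 0. A stretch that holds 2 of these copies, which share 1 base, is shown with the copies in capitals. In the iAs list, whose peak is wider and centred elsewhere, the same window held 3 copies, as many or more being found in 7.62% of that list, and the whole 1141 bp interval held 12.
MAFF (chr22:38598642-38598671, plus): ggcctgggtatcctgcccggtGCGTGCGTG

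MAFG, on the minus strand of chr17:79876146-79885611, had Nrf2 peaks in its intron 1 in both conditions. They were 390 bp at +0.829 kb and 424 bp at +4.13 kb in control cells, and 1130 bp and 850 bp with iAs. Each held a TGACTCAGC site, at +764 bp and +4114 bp. HIF1α had no peak within the MAFG gene in control cells. With iAs it had a 419 bp peak at +0.604 kb, which lay wholly within the Nrf2 iAs peak, and a 455 bp peak at −0.196 kb that covered the start site. The remaining 13 of the 15 HIF1α iAs peaks in the window were nearest to other genes. The remaining Nrf2 control peak, at the start of ASPSCR1, was 213 bp and with iAs 235 bp, and lay 49.8 kb from MAFG, just inside the window, and the next Nrf2 iAs peak, at 50.3 kb, was just outside.

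MAFK, on chr7:1570338-1582679, showed both factors deep in intron 1. Nrf2 had a 266 bp peak at +7.44 kb in control cells and a 1041 bp peak at +7.08 kb with iAs. HIF1α had peaks of 410 bp and 257 bp at +6.6 kb and +7.25 kb in control cells. With iAs a single HIF1α interval of 2070 bp covered both, at +7.37 kb, and it ranked 4 of 12826 by width. The overlap between the factors was 68 bp in control cells, and with iAs the whole Nrf2 peak of 1041 bp lay inside the HIF1α peak. At −17.2 kb Nrf2 had a 381 bp peak in control cells and a 1305 bp peak with iAs, next to an iAs-only peak of 1169 bp at −15.9 kb, with no HIF1α peak on them. A 269 bp Nrf2 peak at +3.31 kb, in the iAs list alone, held the MAFK site printed above at +3326 bp. HIF1α reached the start region with iAs alone, as a 340 bp peak at +0.789 kb.

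BACH1, on chr21:30566392-31003071, encodes the repressor that shares elements with Nrf2, and several of its peaks differed in place between conditions. Its 2 Nrf2 control peaks lay at −113 kb (506 bp) and in coding exon 5 at +43.9 kb (250 bp). Only the first was kept with iAs, as 687 bp. The Nrf2 iAs list held 5 further peaks in the window, the most iAs-only Nrf2 peaks of any gene of the set, in what is also the longest window (537 kb). One of these, 398 bp at +1.39 kb in intron 1, held the TGACTCAGC site at +1398 bp. HIF1α control also had a peak on exon 5, 275 bp at +43.8 kb, which shared 203 bp with the Nrf2 peak, and neither factor had a peak there with iAs. HIF1α iAs instead had peaks of 188 bp, 189 bp and 284 bp at −0.354, −0.004 and +0.367 kb around the canonical start site, where control cells had none. These were narrow, with 96.1%, 95.7% and 63% of the HIF1α iAs list wider. At −39.7 kb HIF1α control had 321 bp and HIF1α iAs 203 bp, and an Nrf2 iAs-only peak of 211 bp overlapped the latter by 89 bp.

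Peaks of control cells were then followed into the iAs lists. Of the 14 Nrf2 control peaks of the set, 11 overlapped an Nrf2 iAs peak by at least 1 bp (78.6%), against 94.6% of the whole list. Among those with a protein-coding start site within 1 kb of the centre, the numbers were 7 of 8 (87.5%) and 91.7%. The 3 without overlap were the narrow peaks named above at SQSTM1 (−13.6 kb), BTRC and BACH1 (exon 5). For HIF1α, 13 of 14 were kept (92.9%), against 53.7% of the whole list. A protein-coding start site lay within 1 kb of the centre of 9 of the 14 peaks of the set and 3117 of the 6008 of the list. Among these, 9 of 9 in the set and 83.3% in the list were kept. The HIF1α peak lost was that of BACH1 exon 5. These counts rest on overlaps of 1 bp. When the overlap had to be 50% of both peaks, 6 Nrf2 peaks (42.9%) and 3 HIF1α peaks (21.4%) of the set were kept, against 60.6% and 31.3% of the whole lists.

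Peaks without a control counterpart made up shares near those of the whole lists. They were 13 of the 24 Nrf2 iAs peaks of the set (54.2%), against 62.0%, and 38 of the 49 HIF1α iAs peaks (77.6%), against 75.2%. Genes with at least 1 such Nrf2 peak were 7 of 10, against 25.4% of protein-coding genes, with KEAP1, CUL3 and BTRC lacking one. Genes with at least 1 such HIF1α peak were 7 of 10, against 59.6%, with MAFF, CUL3 and BTRC lacking one. Of the 38 HIF1α peaks, 29 were nearest to another gene's start, and 7 lay within 1 kb of the start of the gene itself, at NFE2L1 (1), MAFG (2), MAFK (1) and BACH1 (3). Among the 13 Nrf2 peaks, 3 lay that close, at NFE2L2, NFE2L1 and SQSTM1. Those at NFE2L2 and SQSTM1 were less than 1 kb from an Nrf2 control peak. When such nearby control peaks also made a counterpart, 9 Nrf2 and 34 HIF1α peaks of the set remained. For the whole lists only the start of any protein-coding gene was used. It lay within 1 kb of the centre of 688 of 4804 iAs-only Nrf2 peaks and 7455 of 9651 for HIF1α.

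Kept peaks were mostly wider with iAs. The median width ratio at the set was larger for HIF1α than for Nrf2, while over the whole lists it was smaller. Where a HIF1α iAs peak overlapped control peaks at the set, its width divided by their summed width had a median of 3.1 and was above 1 at 10 of 11 positions, against a median of 1.43 over all such peaks of the list, of which 75.9% were wider. The exception was BACH1 at −39.7 kb, with 0.632, and the largest ratio was 4.28, at NFE2L2. For Nrf2 the median was 1.57 with 11 of 11 wider, against 1.63 and 91.7% over the list, which is close. Whether depth or calling differed between the libraries was not tested, as the lists hold no reads. Widths of 1000 bp or more, a limit chosen after the values were seen, were found in Nrf2 control at 2 of 10 genes (KEAP1 and SQSTM1), against 0.699% of protein-coding genes. In Nrf2 iAs they were found at 6 of 10 (NFE2L2, NFE2L1, KEAP1, SQSTM1, MAFG and MAFK), against 4.32%. No HIF1α control peak of the set was that wide, against 0.243%, and in HIF1α iAs 5 of 10 genes had one (NFE2L2, KEAP1, SQSTM1, MAFF and MAFK), against 6.04%.

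**Figure D4:**
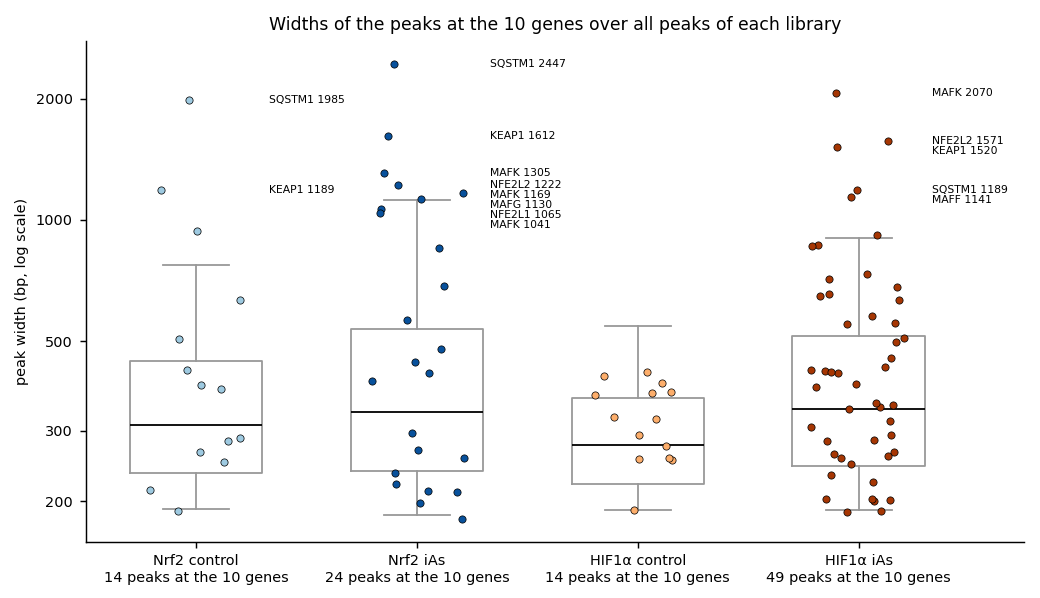
Width of each peak at the 10 genes (points, log scale, bp) by library, over boxes for all peaks of that library (line, median; box, quartiles; whiskers, 5 and 95 percent). Peaks of 1000 bp or more are named with their widths, from 1041 to 2447 bp, and no HIF1α control peak of these genes was above 420 bp.

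Places where the factors overlapped by at least 1 bp were then counted. In control cells an Nrf2 peak overlapped a HIF1α peak at 5 of 10 genes (NFE2L2, KEAP1, SQSTM1, MAFK and BACH1), against 7.84% of protein-coding genes. With iAs it did so at 6 of 10, the same 5 and MAFG, against 12.7%. When the overlap had to be 50% of both peaks, 1 gene was left in control cells and 3 with iAs. The share of all protein-coding genes was not computed under this rule, so these counts have no background. At BACH1 the shared place differed, exon 5 in control cells and −39.7 kb with iAs, whereas at NFE2L2, KEAP1, SQSTM1 and MAFK the overlap was at the same intron or start region in both conditions. Overlaps at MAFG with iAs were in its own intron 1 and near the starts of ANAPC11 (147 bp) and ASPSCR1 (235 bp). Neither MAFF nor NFE2L1 had an overlap, although both carried peaks of both factors.

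Each peak centre and the 100 bp to its left and right were searched for 3 motifs on either strand. These were TGACNNNGC, TGACTCA, and ACGTG or GCGTG, of which the first 2 overlap where the letters read TGACTCAGC. At the set, TGACNNNGC was in 5 of 14 Nrf2 control peaks (35.7%) and 8 of 24 Nrf2 iAs peaks (33.3%), near the 42.3% and 31.5% of the whole lists and above the 6.71% and 6.61% of windows moved by 5 kb. In HIF1α peaks it was in 3 of 14 (21.4%) in control cells and 7 of 49 (14.3%) with iAs, beside 12.8% of the HIF1α control list and 1289 of the 12826 HIF1α iAs peaks. TGACTCA was in 5 of 14 Nrf2 control peaks and 7 of 24 Nrf2 iAs peaks of the set, against 47.7% and 38.2%. In HIF1α peaks it was in 2 of 14 and 3 of 49, against 14.5% and 2.39%. The hypoxia core was in 8 of 14 HIF1α control peaks (57.1%) and 21 of 49 HIF1α iAs peaks (42.9%), against 47.6% and 52.3%, and in 6 of 14 and 6 of 24 Nrf2 peaks, against 24.8% and 25.9%. Within whole Nrf2 iAs intervals, 20 TGACNNNGC sites were found at the 8 genes with peaks. Of these 7 read TGACTCAGC, at SQSTM1 (2), MAFG (3) and BACH1 (2). A match is a string of letters and not a measured site.

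**Figure D5:**
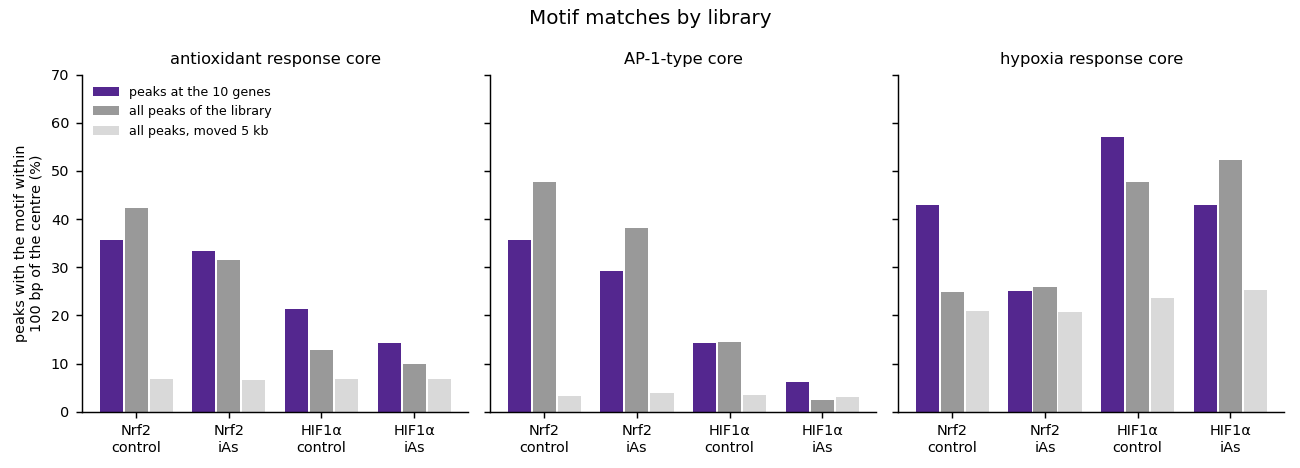
Share of peaks (y axis, percent) with each of the 3 motifs within 100 bp of the centre, by library (x axis), for the peaks at the 10 genes, all peaks of the library and the same windows moved by 5 kb. The antioxidant response core was in 35.7% and 33.3% of Nrf2 peaks of the set and 6.71% or less of moved Nrf2 windows. The hypoxia core was in 42.9% of Nrf2 control peaks of the set (6 of 14) against 24.8% of that list. In Nrf2 iAs it was in 25.0% against 25.9%, and moved windows of these lists held it in 21.0% and 20.8%.

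Other genes of the pathway were taken as a list of 20: NFE2, NFE2L3, BACH2, RBX1, SKP1, CUL1, FBXW11, SYVN1, GSK3A, GSK3B, VCP, CAND1, DPP3, PALB2, AMER1, PGAM5, CHD6, RXRA, CREBBP and EP300. Nrf2 had a peak at 7 of them in control cells and 10 with iAs, and HIF1α at 14 and 20, on the same backgrounds of 20.0%, 35.0%, 45.5% and 68.6%. VCP, DPP3, CHD6, RXRA and CREBBP had a peak in all 4 libraries, 5 of 20, against 12.9% of protein-coding genes. The Nrf2 peaks of DPP3 (−41.5 kb in control cells, −41.6 kb with iAs) and CREBBP (+184 kb) were nearest to another gene's start. A peak centre within 1 kb of the canonical start was found at 2 of 20 in Nrf2 control and 3 in Nrf2 iAs, against 2.24% and 4.92%. For HIF1α the counts were 8 in control cells and 18 with iAs, against 16.5% and 42.2%. RBX1, the RING subunit beside CUL3, had HIF1α peaks of 214 bp and 420 bp at its start in control cells and 1 of 856 bp with iAs, and no Nrf2 peak. SKP1, which links BTRC to CUL1, had Nrf2 peaks in both conditions, among them 1300 bp at +0.253 kb with iAs, and a HIF1α peak of 783 bp at +0.076 kb with iAs alone. VCP, the segregase that extracts ubiquitylated Nrf2, had Nrf2 peaks of 479 bp (control) and 1030 bp (iAs) in intron 1. A HIF1α peak of 732 bp at +0.468 kb, in the iAs list alone, overlapped the Nrf2 iAs peak of VCP. RXRA, a nuclear receptor that binds Nrf2, had an Nrf2 peak in intron 2 of 1235 bp in the control list and 3573 bp in the iAs list. An iAs-only HIF1α peak of 285 bp overlapped the latter.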

How the data were processed

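The authors cross-linked BEAS-2B cells, immunoprecipitated Nrf2 or HIF1α and sequenced 4 ChIP libraries and an input, of which no peak list was used here. Submitters' processing notes name BWA, MACS2 2.1.0 and hg19. The methods state that tags were down-sampled to the smallest library of a group and peaks called with MACS or SICER. Which caller made each list is not given in the sources used here. By the labels the Nrf2 antibody was from Santa Cruz and that against HIF1α from Abcam, while the methods name another supplier. The deposited values are start and end positions of peaks (base positions, no counts or signal), and 21088 merged regions were not used. Depth is unknown.

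Genes were the 20163 protein-coding genes of GENCODE release 44 on GRCh37 (hg19), and positions are from the canonical transcript start. Peaks in a gene's span or within 50 kb were taken, overlaps needed 1 bp, and motif windows were 100 bp on each side of the centre. All 10 members were named, other genes only as nearest neighbours of a peak or as listed regulators. Members and lists were chosen with earlier results of these data known. Python 3.11.15, pysam 0.24.0 and bedtools 2.31.1 were used. The steps were tested on simulated data, and a recount with bedtools gave the same counts. No test was run, since each group has 1 library.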

Additional observations from a re-analysis of the deposited data

How the results depend on the processing

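Counts were recomputed with other settings, of which the canonical transcript span as gene body and all alternatives for kept peaks, wide peaks and genes with a peak at the start were chosen after seeing the data. The numbers of genes with a peak and of genes with a wide peak or a peak at the start stayed within 1.5 times under every alternative run for them, as did all counts recomputed with a gap of up to 1 kb or with canonical spans. Other counts moved further. Peaks at the 10 genes, in the order Nrf2 control, Nrf2 iAs, HIF1α control and HIF1α iAs, were 8, 15, 9 and 30 among the wider 50% of peaks. Within 10 kb they were 14 in Nrf2 iAs and 25 in HIF1α iAs. In the gene body only, Nrf2 control had 9, Nrf2 iAs 12 and HIF1α iAs 19. Restricting to peaks nearest to the gene itself left 8, 12 and 16 in these libraries. Peaks in the iAs list alone were 7 (Nrf2) and 17 (HIF1α) within 10 kb. They were 7 and 22 when iAs and control lists were both cut to their wider 50%. A control peak outside that wider 50% then no longer made a counterpart, so some of these peaks do overlap a narrower control peak. Kept control peaks of Nrf2 were 7 within 10 kb, and 6 (Nrf2) and 3 (HIF1α) with a reciprocal overlap of 50%. That overlap also left 1 gene shared by both factors in control cells and 3 with iAs, with no share over all genes computed. In whole intervals, Nrf2 iAs peaks with TGACNNNGC were 14 (58.3%), with TGACTCA 11 (45.8%) and with the hypoxia core 15 (62.5%). The shares of that list were 44.2%, 51.5% and 42.4%. HIF1α iAs peaks were 12 (24.5%), 6 (12.2%) and 34 (69.4%), against 18.9%, 4.38% and 71.6%. Nrf2 control peaks with the hypoxia core were 10 (71.4%), against 37.0%. Median widths at the set were larger than in the lists, in Nrf2 iAs 461 bp against 333 bp, in HIF1α iAs 418 bp against 340 bp and in Nrf2 control 386 bp against 309 bp. From the nearest start of any transcript rather than the canonical one, 5 positions changed side: NFE2L2 −0.138 kb (Nrf2 control) and −0.104 kb (HIF1α iAs), SQSTM1 −0.007 kb (HIF1α control), and MAFF −0.41 kb (HIF1α control) and −0.485 kb (HIF1α iAs). Another 6 moved by more than the peak's width on the same side, to 0.023 (NFE2L2), 46.9 (NFE2L1), 0.135 (KEAP1) and 31.8 kb (MAFG) in HIF1α control, and at BACH1 to 43.4 kb in Nrf2 control and 0.895 kb in Nrf2 iAs. The smaller window, fewer peaks or longer interval is what each such setting constructs.

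No paired analysis was possible because each group holds 1 library. Leaving out a library would leave its group empty. Depth is unknown, and a missing peak says only that none was listed.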

Other observations

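The windows of MAFG and MAFK lie among closely packed genes, and HIF1α peaks with iAs stood at the starts of many of these neighbours. This was common in the HIF1α iAs list, where 10018 of 12826 peaks had a protein-coding start site within 1 kb of the centre. Of all protein-coding genes, 42.2% had such a peak within 1 kb of the canonical start site. An excess at these neighbours was not tested. Around MAFG the HIF1α iAs peaks included some near ALYREF, ANAPC11, NPB, PCYT2, SIRT7, NOTUM and ASPSCR1. The ANAPC11 peak, at a subunit gene of the anaphase-promoting complex, was 393 bp in the control list and 634 bp in the iAs list. A HIF1α peak of 431 bp near SIRT7, a nuclear deacetylase gene, and 1 of 263 bp near PCYT2 were in the iAs list alone. Around MAFK, iAs-only HIF1α peaks of 917 bp and 648 bp lay 0.113 kb from the start of INTS1, an Integrator subunit gene, and 0.292 kb from that of PSMG3, a proteasome assembly chaperone gene. At SQSTM1, an iAs-only HIF1α peak of 680 bp lay 0.1 kb from the start of MRNIP. None of these genes was chosen for its response, and their peaks are given as values.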
